A study of Homo sapiens with 4 samples.

Results

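The genes described here are 44 interferon-stimulated genes, taken by symbol from a list of known interferon targets out of 58735 genes in the count table. They were measured by RNA-seq in SUP-M2, an established human line of anaplastic large cell lymphoma, a T cell lymphoma that in this line is driven by the ALK kinase. There were 2 libraries titled shGOLM1, meaning a short hairpin RNA against GOLM1, which encodes a Golgi membrane protein, and 2 libraries titled shscramble, meaning a scrambled control hairpin. Another label calls the shGOLM1 samples a knockout, and the labels do not say whether both carried the same hairpin. No interferon treatment is named for any library. The labels do not call the replicates separate cultures, so every p-value here reflects the scatter among the libraries, and that scatter may be technical. In RNA from whole cultures, fewer cells that express a gene and less RNA per cell cannot be told apart.

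Type I interferons bind a receptor made of IFNAR1 and IFNAR2, which activates the kinases JAK1 and TYK2. STAT2 and IRF9 then act in the factor ISGF3, which binds the interferon-stimulated response element (ISRE) in the promoters of its targets. Interferon gamma works through another site, the gamma-activated sequence (GAS). The targets include the sensors and factors that feed the response itself, antiviral enzymes, and inhibitors that end it. Some of them are also expressed at a basal level in cells given no interferon.

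The ISRE letters were common in front of these genes. A promoter window of 250 bases before and 50 after a transcription start was given by RefSeq for 34 of the 44 genes, with DDX58 matched through its current name RIGI. The search took GAAA, any 2 bases and GAAA on both strands for the ISRE, and TTC, any 3 bases and GAA for the GAS, which reads alike on both strands. At least 1 window held the ISRE letters in 23 of these 34 genes (67.6%), against 4.38% of 27305 genes with a window. The GAS letters stood in 9 of 34 genes (26.5%), against 9.38% of all genes, and in 4 of the 9 (BST2, IFI27, IFITM1 and MX1) they overlapped ISRE letters. A match is a description of the sequence and does not show that a factor binds there. No window was given for GBP2, MX2, IFIT2, USP18, OAS2, OASL, DHX58, IFITM2, TRIM22 and IRF7.

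The stretches below show the ISRE letters in capitals for the members with such letters that had the 5 largest log2 differences from shscramble, in either direction, in each shGOLM1 library. They were chosen after the values were seen. All are from RefSeq on GRCh38.p14 and read 5′ to 3′ on the strand of the gene. The first capital lies upstream of a start site by 145 bases in RSAD2, 143 in OAS3, 136 in SAMD9, 108 in IFI27, 164 in IFI44L, 94 in IFIT3, 116 in IFIT1, 69 in ISG20, 6 in DTX3L and 41 in PARP9.
RSAD2, chr2:6877622-6877651, plus strand: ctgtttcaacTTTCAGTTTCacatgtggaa
OAS3, chr12:112938321-112938350, plus strand: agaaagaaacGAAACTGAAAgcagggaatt
SAMD9, chr7:93118096-93118125, minus strand: tctgagaaatGAAACTGAAAccaaacctat
IFI27, chr14:94110618-94110647, plus strand: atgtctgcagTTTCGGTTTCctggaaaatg
IFI44L, chr1:78620274-78620303, plus strand: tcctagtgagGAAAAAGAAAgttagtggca
IFIT3, chr10:89332425-89332454, plus strand: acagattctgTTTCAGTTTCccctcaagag
IFIT1, chr10:89392497-89392526, plus strand: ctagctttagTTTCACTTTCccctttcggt
ISG20, chr15:88638937-88638966, plus strand: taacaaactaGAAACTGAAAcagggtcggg
DTX3L, chr3:122564322-122564351, plus strand: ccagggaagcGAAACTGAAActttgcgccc
PARP9, chr3:122564322-122564351, minus strand: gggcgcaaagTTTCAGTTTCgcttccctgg
DTX3L and PARP9 are transcribed away from each other, and their ISRE letters are the same 10 bases read on opposite strands. IFI44L held its stretch a second time, letter for letter, at chr1:78620365-78620394. OAS3, IFIT1, IFIT3 and IFI27 held further ISRE letters that are not printed. For IFIT3 the letters stood in both of its 2 windows, and the stretch is from the one further along the chromosome.

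GOLM1 itself was at 69.5 and 69.4 CPM in the shGOLM1 libraries, against 212 and 213 CPM in shscramble (CPM, counts relative to TMM-scaled library totals), so both shGOLM1 libraries were lower. Totals were 27544171 to 30889185 counts in shGOLM1 and 31608073 to 31972153 counts in shscramble. The shGOLM1 libraries differed far more from each other than the shscramble libraries did, with a coefficient of variation between replicates of 68.1% in shGOLM1 and 9.11% in shscramble. Mitochondrial genes took 1.95% and 0.455% of the counts in shGOLM1 replicates 1 and 2, against 2.38% and 2.24% in shscramble. Of 12 markers of this lymphoma and of T cells, 9 reached 1 CPM in at least 1 library, and their sum was 2293 and 1412 CPM in shGOLM1, against 1757 and 1672 CPM in shscramble. ALK and IL2RA were expressed in every library, while CD3E and CD3G, subunits of the T cell receptor complex, had at most 1 count and 0 counts in any library, and CD3D reached 6.23 CPM in shGOLM1 replicate 2. The markers did not move together: TNFRSF8 (CD30) had 538 and 88.3 CPM in shGOLM1, against 634 and 614 CPM in shscramble, and CD4 had 307 and 379 CPM in shGOLM1, against 182 and 180 CPM in shscramble. Of the cytotoxic genes on the list, PRF1 had 620 and 145 CPM in shGOLM1, against 2.91 and 2.70 CPM in shscramble, and GZMB had 149 and 20.4 CPM in shGOLM1, against 118 and 86.2 CPM in shscramble. Of the markers of other cell types, B cell, fibroblast and erythroid genes summed to under 1 CPM in every library, and the myeloid list summed to 310 and 231 CPM in shGOLM1 and 235 and 242 CPM in shscramble, nearly all of it CSF1R. The epithelial list summed to 0.605 and 3.16 CPM in shGOLM1 and 0.398 and 0.571 CPM in shscramble. The part of the mitochondrial share and of these markers in the results below was not tested.

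In edgeR, no member passed when all 4 libraries were fitted together. Of the 44 genes, 40 passed the filter on low counts, and none was higher or lower in shGOLM1 in edgeR's quasi-likelihood test at a Benjamini-Hochberg adjusted p of 0.05, where 0% of all 14166 genes passed as higher and 0% as lower. At an unadjusted p under 0.05, 4 of the 40 members were higher (STAT2, IRF7, ISG20 and TRIM22) and 0 were lower. Of all 14166 genes, 1161 were higher and 507 were lower at that threshold. DESeq2 passed 2 of the 40 as higher, TRIM22 (adjusted p 0.0115) and IRF9 (adjusted p 0.039), or 5% of the members, where 3.46% of all genes passed. It passed 0 members as lower, where 0.346% of all genes passed. GOLM1 itself, lower in both shGOLM1 libraries, did not pass in edgeR in this fit (log2 fold change -1.61, SE 0.27, adjusted p 0.42). DESeq2 passed GOLM1 as lower (adjusted p 0.0204). The authors' deposited table gives IRF9 a log2 fold change of 3.03 with an adjusted p of 0.0227, and TRIM22 one of 1.78 with 0.0413. In 10 members both shGOLM1 libraries lay above both shscramble libraries, which is 25% of the 40, against 25.2% of all genes tested. In 7 members both lay below, or 17.5%, against 26.5% of all genes.

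Because the shGOLM1 libraries stood apart from each other, each was also compared on its own with the shscramble pair. In such a fit the lone library is assumed to vary like the shscramble pair, it compares libraries and not conditions, and both comparisons share their controls. In shGOLM1 replicate 1, 19 of 41 members tested were higher (46.3%), against 20.4% of all genes, and 3 were lower (7.32%), against 24.1% of all genes. In shGOLM1 replicate 2, 12 of 40 members were higher (30%), against 33.3% of all genes, and 19 were lower (47.5%), against 34.1%. The median log2 difference of the 40 members from the shscramble mean was 0.67 in replicate 1, where all genes had a median of 0.00, and -0.75 in replicate 2, where all genes had -0.04. Below, "higher" and "lower" after a test mean an adjusted p under 0.05 in edgeR's test of that one library.

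**Figure D1:**
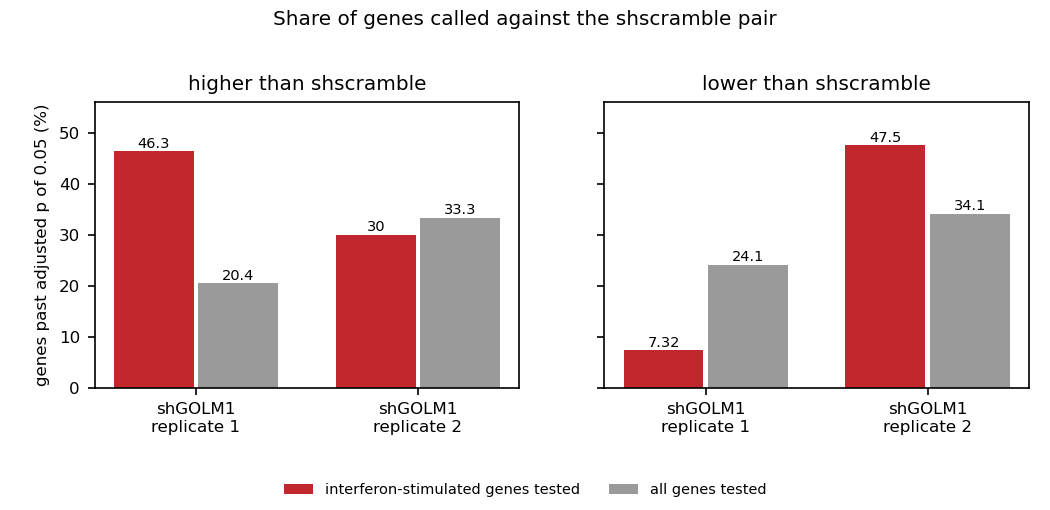
Bars give the percent of genes past an adjusted p of 0.05 in edgeR as higher (left panel) or lower (right panel) than the shscramble pair, for each shGOLM1 library on its own. Among the interferon-stimulated genes tested, 46.3% were higher in replicate 1 and 47.5% were lower in replicate 2, against 20.4% and 34.1% of all genes tested.

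Per length, BST2, IFITM1, ISG15 and GBP2 were the 4 most abundant members in shscramble. On the authors' deposited FPKM values, BST2 averaged 115 FPKM in shGOLM1 and 130 FPKM in shscramble, and IFITM1 averaged 145 FPKM in shGOLM1 and 111 FPKM in shscramble. ISG15 averaged 103 FPKM in shGOLM1 and 79.4 FPKM in shscramble, and GBP2 averaged 61.5 FPKM in shGOLM1 and 28.2 FPKM in shscramble. At the other end, MX1 had 0 counts in all 4 libraries, and its neighbour MX2 had a single count, in shGOLM1 replicate 1. Both encode dynamin-like GTPases that block incoming viruses, and MX1 is among the most widely used markers of an interferon response. A count of 0 allows up to 3 counts, or 0.0864 to 0.132 CPM across the libraries, for counting error only. Of the 44 genes, 36 had a mean of at least 1 CPM.

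**Figure D2:**
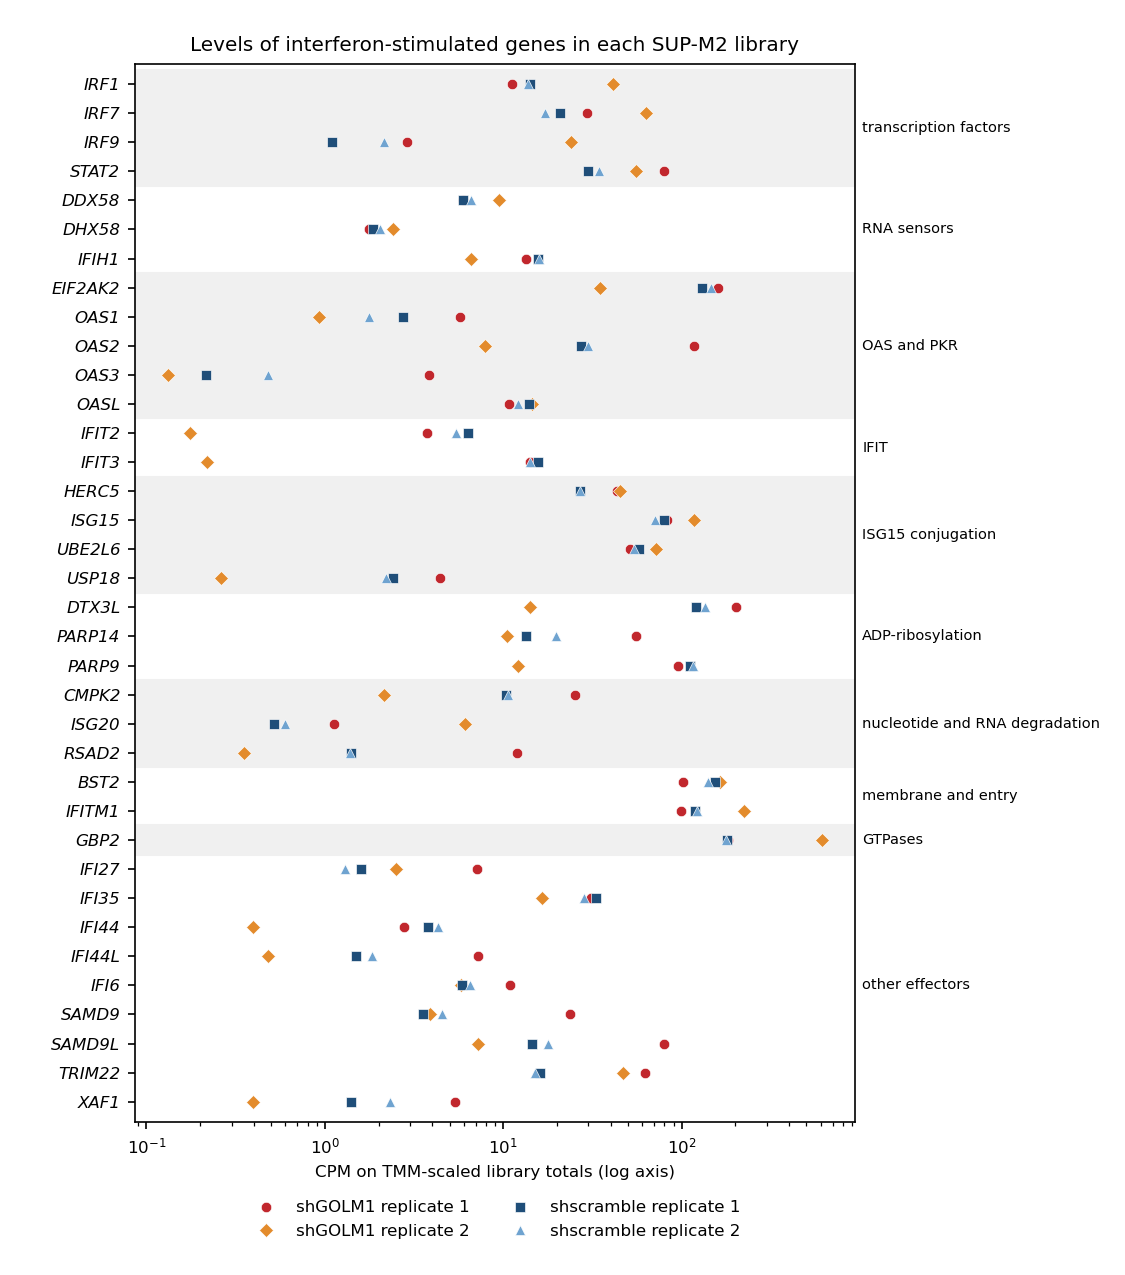
Each row is one of the 36 members with a mean of at least 1 CPM, grouped by role, and each symbol is 1 library on a log axis of CPM. The shscramble libraries lie close together in most rows, while shGOLM1 replicate 2 lies far to the left in rows such as IFIT3 (0.219 CPM) and RSAD2 (0.351 CPM) and far to the right in GBP2 (613 CPM) and IRF9 (24.1 CPM).

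All 4 transcription factors among the members were higher in shGOLM1 replicate 2, where 33.3% of all genes were, and 2 of them also in replicate 1, where 20.4% of all genes were. STAT2, the ISGF3 subunit that carries its activation domain, was at 80.0 and 55.4 CPM in shGOLM1, against 29.8 and 34.3 CPM in shscramble. Both shGOLM1 libraries lay above both controls, with a log2 fold change of 1.30 (SE 0.12, adjusted p 2.29e-08) in replicate 1 and 0.74 (SE 0.13, adjusted p 9.65e-05) in replicate 2. IRF7, the factor that amplifies interferon alpha transcription, was at 29.3 and 62.7 CPM in shGOLM1, against 20.8 and 17.0 CPM in shscramble. It was also higher in each library alone, with log2 fold changes of 0.61 (SE 0.15, adjusted p 0.002) and 1.68 (SE 0.14, adjusted p 2.52e-08). IRF9, the DNA-binding subunit of ISGF3, was at 2.88 and 24.1 CPM in shGOLM1, against 1.10 and 2.13 CPM in shscramble. Replicate 2 stood apart at 14.9-fold the shscramble mean (log2 fold change 3.84, SE 0.26, adjusted p 2.79e-09), while replicate 1 did not pass (0.82, SE 0.41, adjusted p 0.115). Of the exonic bases of IRF9, 48.4% are shared with AL136295.5 on the same strand, so the counts of IRF9 are uncertain. IRF1, a factor induced through the GAS by interferon gamma, was at 11.1 and 41.2 CPM in shGOLM1, against 14 and 13.8 CPM in shscramble. It was below both controls without passing in replicate 1 (-0.34, SE 0.18, adjusted p 0.129) and higher in replicate 2 (1.52, SE 0.14, adjusted p 8.57e-08). An antisense partner covers 22% of its exonic bases, and the strand setting of the counts is not known.

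The promoter of IRF9 is shown because IRF9 had the largest log2 fold change in the fit of all 4 libraries, 3.05 (SE 1.16, unadjusted p 0.0527, adjusted p 0.424), among members with a mean of at least 5 CPM whose groups did not overlap. Its window held no ISRE letters and 1 GAS match, in capitals, which starts 63 bases upstream of the start site, on the plus strand of GRCh38.p14.
IRF9, chr14:24161015-24161314: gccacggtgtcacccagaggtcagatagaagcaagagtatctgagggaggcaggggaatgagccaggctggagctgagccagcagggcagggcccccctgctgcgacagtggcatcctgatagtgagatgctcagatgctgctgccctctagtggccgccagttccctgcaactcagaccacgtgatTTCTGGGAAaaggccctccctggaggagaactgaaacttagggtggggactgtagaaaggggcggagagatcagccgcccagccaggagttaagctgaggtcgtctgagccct
TRIM22, IRF7 and GBP2 came next by the same rule.

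Of the RNA sensors, which detect viral RNA in the cytosol and start interferon transcription, IFIH1 (MDA5) was at 13.3 and 6.62 CPM in shGOLM1, against 15.6 and 15.9 CPM in shscramble. Both shGOLM1 libraries lay below the controls, but only replicate 2 passed (-1.30, SE 0.19, adjusted p 1.98e-05), and replicate 1 did not (-0.26, SE 0.17, adjusted p 0.226). DDX58 (RIG-I) was at 5.96 and 9.52 CPM in shGOLM1, against 5.91 and 6.55 CPM in shscramble. Replicate 1 lay among the controls, and replicate 2 was higher (0.56, SE 0.22, adjusted p 0.031), a call that was lost in DESeq2, on library totals alone and without the filter. DHX58 (LGP2), a regulator of both other sensors, was at 1.76 and 2.41 CPM in shGOLM1, against 1.87 and 2.04 CPM in shscramble, and passed in neither library.

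The IFIT genes, whose proteins bind viral RNA ends and hold back translation, were all close to the limit of detection in shGOLM1 replicate 2. They lie side by side on chromosome 10, from 89283694 to 89421001 (GRCh38). IFIT3 had 487 and 5 counts in shGOLM1, against 508 and 467 counts in shscramble, or 14 and 0.219 CPM against 15.6 and 14 CPM. Replicate 1 was at the control level (-0.09, SE 0.17, adjusted p 0.687), and replicate 2 was 67.5-fold lower (-6.10, SE 0.37, adjusted p 6.44e-10). IFIT2 was at 3.72 and 0.175 CPM in shGOLM1, against 6.34 and 5.44 CPM in shscramble. It was lower in both libraries, by a log2 fold change of -0.68 (SE 0.26, adjusted p 0.0378) in replicate 1, which was lost in DESeq2, on library totals alone and in a fit of all 4 libraries with each shGOLM1 library as its own level, and of -5.08 (SE 0.49, adjusted p 1.51e-07) in replicate 2. IFIT1 had 26 and 0 counts in shGOLM1, against 25 and 25 counts in shscramble. Its level in replicate 2 was at least 5.76-fold lower than the shscramble mean, with 3 counts per library as the floor (adjusted p 0.00383), and replicate 1 did not pass (adjusted p 0.973). IFIT5 was at 2.33 and 0.0877 CPM in shGOLM1, against 0.919 and 0.391 CPM in shscramble, and was higher in replicate 1 (1.81, SE 0.54, adjusted p 0.00854), a call that DESeq2 did not make. In replicate 2 it had an adjusted p of 0.0546 (-2.89, SE 1.27), and it passed as lower on library totals alone (adjusted p 0.041) and in the fit with each shGOLM1 library as its own level (0.0348), but not in DESeq2 (0.175).

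The OAS genes encode enzymes that make 2′-5′-linked oligoadenylates, which activate RNase L, and OAS1, OAS3 and OAS2 neighbour each other on chromosome 12. OAS2 was at 118 and 7.85 CPM in shGOLM1, against 27.2 and 29.8 CPM in shscramble. The shGOLM1 libraries enclosed the controls, with replicate 1 higher (2.03, SE 0.12, adjusted p 6.69e-12) and replicate 2 lower (-1.91, SE 0.17, adjusted p 6.59e-08). OAS1 was at 5.70 and 0.921 CPM in shGOLM1, against 2.76 and 1.77 CPM in shscramble, again higher in replicate 1 (1.32, SE 0.31, adjusted p 0.00136) and lower in replicate 2 (-1.34, SE 0.51, adjusted p 0.0286), the last a call that DESeq2 did not make. OAS3 was at 3.83 and 0.132 CPM in shGOLM1, against 0.214 and 0.481 CPM in shscramble, and replicate 1 was 11.0-fold the shscramble mean (3.43, SE 0.50, adjusted p 7.99e-06). Replicate 2 was below both controls without passing (-1.42, SE 1.35, adjusted p 0.359). OASL, a relative without that enzyme activity that lies elsewhere on chromosome 12, was at 10.8 and 14.4 CPM in shGOLM1, against 13.9 and 12.1 CPM in shscramble, and passed in neither. EIF2AK2 (PKR), the kinase that halts translation on double-stranded RNA, was at 159 and 34.6 CPM in shGOLM1, against 130 and 146 CPM in shscramble. It was lower in replicate 2 (-2.04, SE 0.13, adjusted p 1.14e-09), and replicate 1 did not pass (0.19, SE 0.11, adjusted p 0.185).

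**Figure D3:**
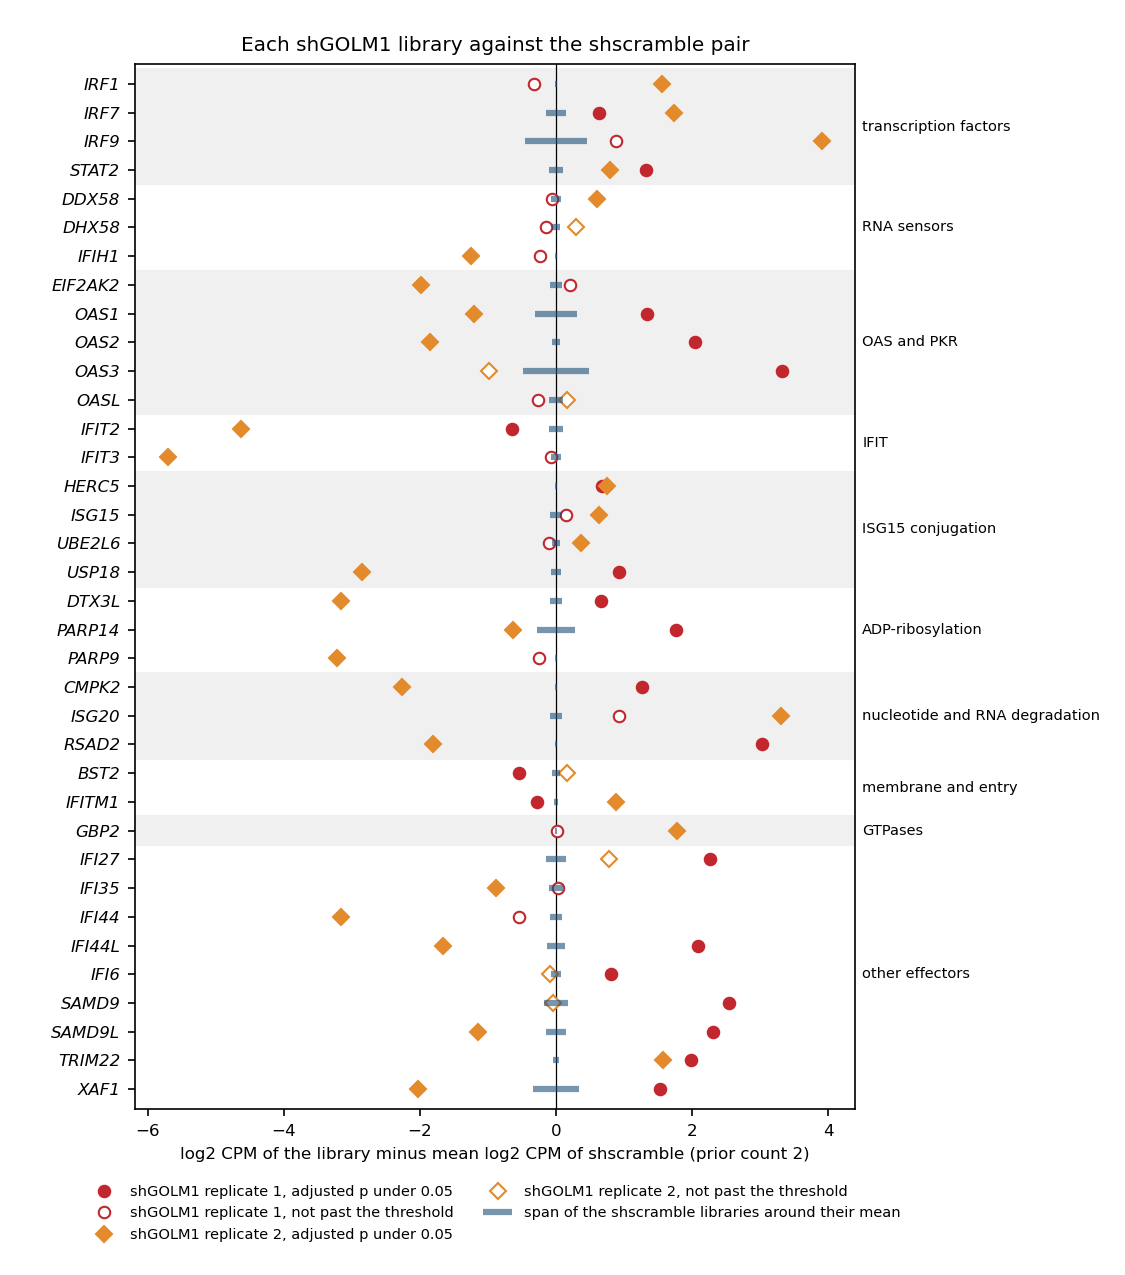
Each row is one member with a mean of at least 1 CPM, grouped by role, and symbols give the log2 CPM of each shGOLM1 library minus the shscramble mean (filled where the adjusted p in edgeR was under 0.05). The bar at 0 spans the shscramble libraries. In OAS2, RSAD2, CMPK2, SAMD9L, IFI44L and XAF1, replicate 1 lies to the right of the bar and replicate 2 to its left, while in STAT2, IRF7, HERC5 and TRIM22 both lie to the right.

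The ISG15 system attaches the ubiquitin-like protein ISG15 to other proteins. ISG15 was at 83.0 and 117 CPM in shGOLM1, against 79.7 and 71.2 CPM in shscramble. Replicate 1 lay just above both controls without passing (0.12, SE 0.12, adjusted p 0.435), and replicate 2 was higher (0.59, SE 0.11, adjusted p 0.00026). HERC5, the main ligase that attaches ISG15 in human cells, was at 43.2 and 45.1 CPM in shGOLM1, against 27.0 and 26.7 CPM in shscramble. Both shGOLM1 libraries were alike here and higher, with log2 fold changes of 0.67 (SE 0.13, adjusted p 0.000196) and 0.70 (SE 0.13, adjusted p 0.000162). UBE2L6, the conjugating enzyme between activation and ligation, was at 51.6 and 71.7 CPM in shGOLM1, against 57.7 and 53.7 CPM in shscramble. Replicate 2 was higher (0.32, SE 0.12, adjusted p 0.0249), a call that was lost in DESeq2, on library totals alone and without the filter, and replicate 1 lay below both controls without passing (-0.13, SE 0.12, adjusted p 0.434).

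USP18, the protease that removes ISG15 and also damps signalling at IFNAR2, was at 4.44 and 0.263 CPM in shGOLM1, against 2.42 and 2.19 CPM in shscramble. Replicate 1 was higher (0.93, SE 0.31, adjusted p 0.0179), which DESeq2 did not call, and replicate 2 lower (-3.16, SE 0.62, adjusted p 0.000283). HERC6, the neighbour of HERC5 on chromosome 4, was at 0.634 and 0.0439 CPM in shGOLM1, against 0.827 and 1.23 CPM in shscramble. It was lower in replicate 2 (-4.47, SE 1.19, adjusted p 0.00344), so these adjacent genes differed in opposite directions there.

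PARP9 and DTX3L, which form a complex that joins ADP-ribosylation to ubiquitin transfer, share the divergent promoter whose ISRE letters are printed above. PARP9 was at 95.2 and 12.2 CPM in shGOLM1, against 112 and 115 CPM in shscramble. DTX3L was at 201 and 14.1 CPM in shGOLM1, against 120 and 135 CPM in shscramble. In replicate 2 both were lower by a like amount, with log2 fold changes of -3.27 for PARP9 (SE 0.14, adjusted p 1.43e-11) and -3.22 for DTX3L (SE 0.14, adjusted p 2.48e-11). In replicate 1 only DTX3L passed, as higher (0.64, SE 0.11, adjusted p 7.65e-05), and PARP9 lay below both controls (-0.27, SE 0.11, adjusted p 0.0615). PARP14, a mono-ADP-ribosyltransferase on the same chromosome, was at 55.6 and 10.5 CPM in shGOLM1, against 13.4 and 19.7 CPM in shscramble. It was higher in replicate 1 (1.73, SE 0.16, adjusted p 1.29e-08) and lower in replicate 2 (-0.71, SE 0.22, adjusted p 0.00968), where DESeq2 did not call it.

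RSAD2 (viperin) and CMPK2 act on nucleotides, with viperin making a chain-terminating form of CTP, and are transcribed away from each other on chromosome 2. RSAD2 was at 11.9 and 0.351 CPM in shGOLM1, against 1.41 and 1.38 CPM in shscramble. Replicate 1 was 8.5-fold the shscramble mean (log2 fold change 3.07, SE 0.25, adjusted p 3.17e-09), and replicate 2 was lower (-2.03, SE 0.70, adjusted p 0.0174), which DESeq2 did not call. CMPK2 was at 25.3 and 2.15 CPM in shGOLM1, against 10.4 and 10.7 CPM in shscramble, and likewise higher in replicate 1 (1.25, SE 0.16, adjusted p 1.42e-06) and lower in replicate 2 (-2.34, SE 0.26, adjusted p 6.69e-07). ISG20, an exonuclease that degrades RNA, ran the other way between the libraries. It was at 1.12 and 6.10 CPM in shGOLM1, against 0.521 and 0.601 CPM in shscramble, and was 10.9-fold the shscramble mean in replicate 2 (3.38, SE 0.40, adjusted p 1.64e-06) but did not pass in replicate 1 (0.98, SE 0.67, adjusted p 0.245).

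At the membrane, BST2 (tetherin), which holds budding virions on the cell, was at 101 and 164 CPM in shGOLM1, against 153 and 141 CPM in shscramble. It was lower in replicate 1 (-0.56, SE 0.12, adjusted p 0.000513) and did not pass in replicate 2 (0.11, SE 0.11, adjusted p 0.388). IFITM1, which hinders the fusion of viruses with the cell membrane, was at 99.6 and 223 CPM in shGOLM1, against 119 and 122 CPM in shscramble. It was higher in replicate 2 (0.84, SE 0.10, adjusted p 2.43e-06), and its lower value in replicate 1 (-0.29, SE 0.11, adjusted p 0.0428) did not pass in DESeq2 or on library totals alone. IFITM1 shares 32.5% of its exonic bases with IFITM2 on the same strand, so reads there may be split between them. IFITM2 had 9 and 0 counts in shGOLM1 and 2 and 0 in shscramble. IFITM3 had 12 and 11 counts in shGOLM1 and 3 and 5 in shscramble, and passed in neither library.

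GBP2, a guanylate-binding GTPase that coats intracellular pathogens and is strongly induced by interferon gamma, was at 181 and 613 CPM in shGOLM1, against 180 and 177 CPM in shscramble. Replicate 1 lay at the control level (0.00, SE 0.11, adjusted p 0.981), and replicate 2 was 3.44-fold the shscramble mean (1.73, SE 0.10, adjusted p 6.41e-10). Its neighbour GBP1 had only 16 and 4 counts in shGOLM1 and 2 and 6 in shscramble. It was tested in replicate 1 only and did not pass (1.88, SE 1.17, adjusted p 0.203).

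Of 9 other effectors, 7 were higher in replicate 1, where 20.4% of all genes were. In replicate 2, TRIM22 alone was higher and 5 were lower, where 33.3% and 34.1% of all genes were. TRIM22, a ubiquitin ligase that restricts retroviruses, was at 62.1 and 46.6 CPM in shGOLM1, against 16.1 and 15.1 CPM in shscramble. Both shGOLM1 libraries lay well above both controls, at log2 fold changes of 1.98 (SE 0.13, adjusted p 5.03e-11) and 1.53 (SE 0.14, adjusted p 6.0e-08). In the fit of all 4 libraries TRIM22 had 1.80 (SE 0.32, unadjusted p 0.00374, adjusted p 0.42). IFI27, a mitochondrial membrane protein often used in interferon scores, was at 7.11 and 2.50 CPM in shGOLM1, against 1.59 and 1.29 CPM in shscramble. Both were above the controls, and replicate 1 passed (2.28, SE 0.30, adjusted p 2.19e-06) while replicate 2 did not (0.74, SE 0.44, adjusted p 0.143).

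SAMD9 and SAMD9L, neighbours on chromosome 7 that restrain translation and growth, were both higher in replicate 1. SAMD9L was at 79.6 and 7.19 CPM in shGOLM1, against 14.5 and 17.7 CPM in shscramble, with log2 fold changes of 2.29 (SE 0.13, adjusted p 6.16e-12) in replicate 1 and -1.21 (SE 0.20, adjusted p 6.41e-05) in replicate 2. SAMD9 was at 23.7 and 3.90 CPM in shGOLM1, against 3.55 and 4.54 CPM in shscramble, so that replicate 1 was 5.86-fold the shscramble mean (2.53, SE 0.19, adjusted p 6.23e-10) and replicate 2 lay between the controls (-0.10, SE 0.30, adjusted p 0.781). IFI44L was at 7.23 and 0.483 CPM in shGOLM1, against 1.5 and 1.83 CPM in shscramble, higher in replicate 1 (2.10, SE 0.29, adjusted p 4.26e-06) and lower in replicate 2 (-1.83, SE 0.61, adjusted p 0.0153). Its neighbour and relative IFI44 was at 2.77 and 0.395 CPM in shGOLM1, against 3.8 and 4.3 CPM in shscramble, below both controls in each library. Only replicate 2 passed for IFI44 (-3.39, SE 0.47, adjusted p 8.5e-06), and replicate 1 did not (-0.56, SE 0.30, adjusted p 0.137), so the neighbours parted in replicate 1. DESeq2 did not call the lower value of IFI44L in replicate 2.

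XAF1, a partner of the apoptosis inhibitor XIAP, was at 5.36 and 0.395 CPM in shGOLM1, against 1.41 and 2.31 CPM in shscramble. It was higher in replicate 1 (1.51, SE 0.33, adjusted p 0.000629) and lower in replicate 2 (-2.27, SE 0.64, adjusted p 0.00535), the last not called by DESeq2, and 38.3% of its exonic bases lie opposite the gene PRAL. IFI6, a mitochondrial protein that opposes cell death, was at 10.9 and 5.79 CPM in shGOLM1, against 5.88 and 6.49 CPM in shscramble. It was higher in replicate 1 (0.80, SE 0.21, adjusted p 0.00304), again a call that DESeq2 did not make, and replicate 2 did not pass (-0.14, SE 0.24, adjusted p 0.612). IFI35, a partner of the protein NMI, was at 31.0 and 16.6 CPM in shGOLM1, against 32.9 and 28.3 CPM in shscramble, and lower in replicate 2 (-0.93, SE 0.16, adjusted p 7.05e-05).

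The members were also split by what their promoters held. Of the members that passed the filter and had a window, the 21 with ISRE letters had a median log2 difference of 0.68 in replicate 1 and -0.99 in replicate 2. The 11 without had 0.88 and -0.88 in the same libraries, and the ranges of the groups overlapped in both. These 11 lack only the letters searched for. The windows of OAS1, DDX58, XAF1, CMPK2 and IFI35 hold GAAA, 1 base and GAAA on 1 of the strands. The split therefore does not separate genes with and without any ISRE-like site. Of the 21, 10 were higher and 2 lower in replicate 1, and 4 were higher and 10 lower in replicate 2. Of the 11, 5 were higher and 0 lower in replicate 1, and 5 were higher and 6 lower in replicate 2. Over all genes tested, 20.4% were higher and 24.1% lower in replicate 1, and 33.3% were higher and 34.1% lower in replicate 2.

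**Figure D4:**
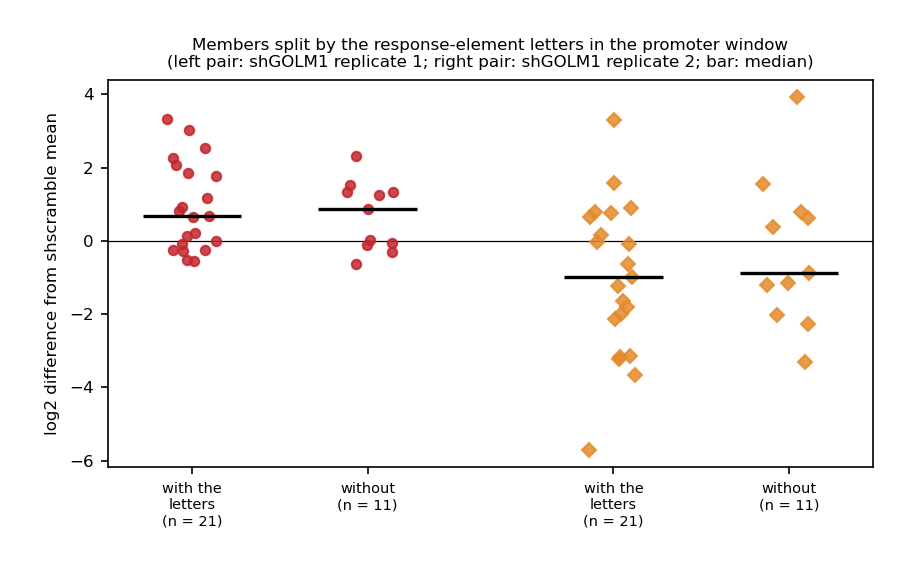
Each symbol is one member with a promoter window, placed by its log2 CPM in an shGOLM1 library minus the shscramble mean, and split by whether a window held the ISRE letters. Bars are medians: in replicate 1 they were 0.68 with the letters and 0.88 without, and in replicate 2 they were -0.99 and -0.88, with wide overlap.

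Upstream of the members, the interferons themselves were hardly detected. Of 21 interferon genes, 17 had 0 counts in every library and none reached a mean of 1 CPM. The exceptions named here were picked after their values were seen. IFNG, which encodes interferon gamma, had 0 and 39 counts in shGOLM1, against 1 and 0 counts in shscramble, so that nearly all of its counts came from replicate 2 (adjusted p 0.000212 there). IFNL1, an interferon lambda, had 16 and 13 counts in shGOLM1, against 0 and 2 counts in shscramble, with adjusted p of 0.0429 in replicate 1 and 0.0272 in replicate 2. Both are low counts. In replicate 2, DESeq2 gave IFNG an adjusted p of 0.00211 and IFNL1 one of 0.164, and in replicate 1 it gave IFNL1 none.

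Of 9 receptor and kinase genes, 8 were tested, and in the fit of all 4 libraries edgeR called none. From this list and those below, the genes named by rule had the smallest unadjusted p in that fit, at a mean of at least 1 CPM. That choice favours genes whose shGOLM1 libraries agree, so the named genes do not stand for their lists. Alone, replicate 1 had 0 higher and 2 lower, against 20.4% and 24.1% of all genes, and replicate 2 had 4 higher and 2 lower, against 33.3% and 34.1%. At 25% of 8 genes, the share lower in replicate 1 was near that of all genes. JAK1 was at 297 and 520 CPM in shGOLM1, against 225 and 260 CPM in shscramble, and TYK2 at 127 and 211 CPM in shGOLM1, against 103 and 113 CPM in shscramble. Both kinases were above the controls in each shGOLM1 library and passed in replicate 2 only, at 1.05 for JAK1 (SE 0.11, adjusted p 5.8e-07) and 0.92 for TYK2 (SE 0.11, adjusted p 1.28e-06). IFNAR1, the receptor chain bound by TYK2, was at 63.8 and 25.3 CPM in shGOLM1, against 59.6 and 62.0 CPM in shscramble, and was lower in replicate 2 (-1.31, SE 0.13, adjusted p 2.15e-07). JAK2, which serves the interferon gamma receptor, was at 11.6 and 6.67 CPM in shGOLM1, against 12 and 12.2 CPM in shscramble, and also lower in replicate 2 (-0.91, SE 0.20, adjusted p 0.000954).

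Of 21 genes of nucleic acid sensing, 3 were higher and 4 lower in replicate 1 (17 tested), and 2 were higher and 9 lower in replicate 2 (16 tested). The shares of 17.6% and 23.5% in replicate 1 were near the 20.4% and 24.1% of all genes, while all genes had 33.3% and 34.1% in replicate 2. TBK1, the kinase that activates IRF3, was at 37.6 and 35.3 CPM in shGOLM1, against 67.4 and 64.2 CPM in shscramble. It was lower in both libraries by nearly the same amount, -0.82 (SE 0.13, adjusted p 1.67e-05) and -0.95 (SE 0.12, adjusted p 5.3e-06). AIM2, a DNA sensor of the inflammasome, was likewise lower in both, at 91.3 and 103 CPM in shGOLM1 against 166 and 161 CPM in shscramble (-0.86, SE 0.12, adjusted p 3.77e-06, and -0.72, SE 0.11, adjusted p 2.57e-05). IKBKE, a relative of TBK1, was at 16.2 and 10 CPM in shGOLM1, against 20.7 and 20.0 CPM in shscramble, and passed as lower in replicate 2 only (-1.07, SE 0.17, adjusted p 3.9e-05). IRF5, a factor downstream of Toll-like receptors, was at 235 and 101 CPM in shGOLM1, against 95.3 and 91.4 CPM in shscramble, and passed as higher in replicate 1 only (1.32, SE 0.11, adjusted p 3.26e-09).

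Among 15 genes that restrain interferon signalling, all tested, 3 were higher and 7 lower in replicate 1, and 4 were higher and 10 lower in replicate 2. All genes had 20.4% and 24.1% in replicate 1, and 33.3% and 34.1% in replicate 2. SOCS3, an inhibitor of JAK kinases and a target of STAT3, was at 516 and 594 CPM in shGOLM1, against 349 and 336 CPM in shscramble, higher in both libraries (0.58, SE 0.11, adjusted p 0.000276, and 0.75, SE 0.11, adjusted p 1.4e-05). CISH, an inhibitor induced by STAT5, was at 17.3 and 8.07 CPM in shGOLM1, against 26.0 and 25.2 CPM in shscramble, lower in both (-0.58, SE 0.15, adjusted p 0.00289, and -1.71, SE 0.17, adjusted p 2.12e-07). PTPN1, a phosphatase of JAK2 and TYK2, was at 99.2 and 78.3 CPM in shGOLM1, against 135 and 141 CPM in shscramble, and PIAS2, a SUMO ligase, was at 48.2 and 70.6 CPM in shGOLM1, against 37.0 and 35.1 CPM in shscramble. PTPN1 passed as lower and PIAS2 as higher in each library alone.

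**Figure D5:**
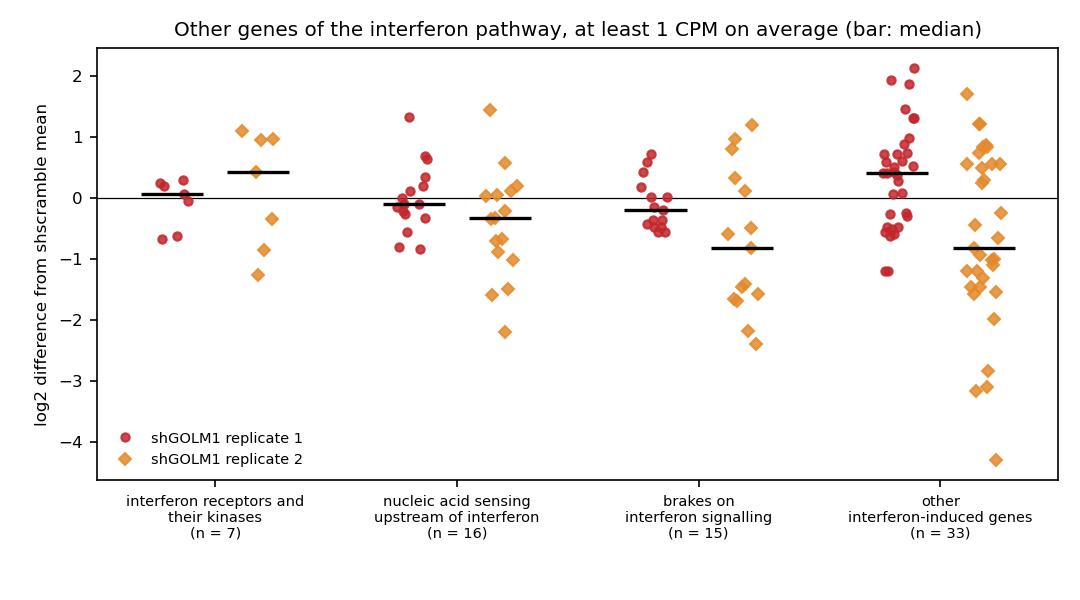
Symbols are genes of 4 other interferon lists with a mean of at least 1 CPM, placed by the log2 CPM of an shGOLM1 library minus the shscramble mean, with bars at the medians. Genes of each list lie on both sides of 0 in both libraries, and replicate 2 spreads more widely than replicate 1.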

How the data were processed

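Total RNA went into libraries built with the SMARTER mRNA kit, per the labels' protocols. Aligner, counter and strand setting were not given in the sources used here. Mouse builds GRCm38 and mm10 stand in the submitters' processing notes, but all 58735 gene identifiers, starts and ends in the deposited table are those of human GENCODE 29 (GRCh38), with 0 mouse identifiers. For 27 genes whose symbols had become dates, GENCODE 29 gave the symbol.

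The authors deposited whole-number read counts per gene, per the file headers, and these were used in every test. The authors' FPKM values served only to compare levels between genes. The authors' group mean signal was not used. The authors' log2 fold change, p-value and adjusted p-value are printed only where the authors' deposited table is named.

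Counts were fitted with edgeR 4.0.16 (limma 3.58.1, R 4.3.3): TMM factors, filterByExpr, quasi-likelihood test, two-sided, no covariate, Benjamini-Hochberg adjustment over all genes tested, threshold 0.05. The fits took all 4 libraries, or 1 shGOLM1 library and both shscramble libraries. The test itself gives no standard error. Each SE here is the absolute log2 fold change divided by the square root of the F statistic of the test. DESeq2 1.42.0 was run on the same filtered genes. CPM used TMM-scaled totals, and log2 CPM a prior count of 2. The scripts were tested on simulated data. The 44 genes, the gene lists and the tests were chosen with earlier results of these data known. Named genes were all members with a mean of at least 1 CPM, with the others given by counts, and from each of 5 pathway lists up to 4 genes with the smallest unadjusted p and at least 1 CPM. The promoter rule took up to 4 members by log2 fold change with groups apart and a mean of at least 5 CPM. Figures were drawn with matplotlib 3.10.9. Libraries with the same replicate number were not treated as pairs, as their deviations had a correlation of -0.0977. Not every gene of the lists is reported here.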

Additional observations from a re-analysis of the deposited data

How the results depend on the processing

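The shGOLM1 libraries were the main limit, since they stood apart from each other. Leaving out either one gives the fit of the other against the shscramble pair, already reported above. In such a fit the scatter comes from the shscramble pair alone. Its values below repeat those results and are not a separate check. Of the 40 members in the fit of all 4 libraries, 0 to 19 were called higher and 0 to 19 lower when 1 library was left out, and DESeq2 called 2 higher. Over all genes the same fits called 16 to 5078 higher and 4 to 5212 lower. With 1 library left out, the median log2 difference of the members ran from -0.75 to 0.67. For replicate 1 alone, fewer members were called lower in DESeq2 and on library totals alone, and so were fewer of all genes. The median of the members in replicate 1 was 0.79 on library totals alone. For replicate 2 alone, the median was -1.08 on library totals alone and ran from -0.83 to -0.43 with 1 shscramble library left out. Library totals alone moved the median of all genes by 0.11 in replicate 1 and -0.32 in replicate 2. The replicate number as a block called 0 members higher and 0 lower, as without it, and the labels give no pairing. Over all genes, where none passed as planned, 169 were higher and 34 lower with the block, and 175 and 17 without the filter. With it, USP18 reversed to -0.93, CMPK2 to -0.48 and XAF1 to -0.20. USP18 also reversed without the filter (-0.017) and DHX58 on library totals alone (-0.030). Fold changes that reversed with 1 library left out ran as follows on the log2 scale: BST2 -0.56 to 0.11, CMPK2 -2.34 to 1.25, DDX58 -0.079 to 0.56, DHX58 -0.17 to 0.25, DTX3L -3.22 to 0.64, EIF2AK2 -2.04 to 0.19, IFI35 -0.93 to 0.0036, IFI44L -1.83 to 2.10, IFI6 -0.14 to 0.80, IFITM1 -0.29 to 0.84, IFNAR1 -1.31 to 0.055, IRF1 -0.34 to 1.52, OAS1 -1.34 to 1.32, OAS2 -1.91 to 2.03, OAS3 -1.42 to 3.43, OASL -0.29 to 0.10, PARP14 -0.71 to 1.73, RSAD2 -2.03 to 3.07, SAMD9 -0.10 to 2.53, SAMD9L -1.21 to 2.29, UBE2L6 -0.13 to 0.32, USP18 -3.16 to 0.93 and XAF1 -2.27 to 1.51. The cause was not tested. Size factors of the DESeq2 kind changed no call of a member in either single-library comparison. IFITM2 and MX2, with at most 9 counts and 1 count in a library, lie at the limit of the depth.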

Other observations

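A further list of 45 interferon-induced genes that are not among the 44 was described in the same way, with 38 tested. The fit of all 4 libraries called none in edgeR, with 6 of the 38 higher and 3 lower at an unadjusted p under 0.05. Of all 14166 genes, 1161 were higher and 507 were lower at that threshold. DESeq2 called 1 of the 38 list genes higher (APOL1, adjusted p 0.0032), or 2.63%, where 3.46% of all genes passed as higher. In shGOLM1 replicate 1, 17 were higher and 8 lower, where 20.4% and 24.1% of all genes were. In replicate 2, 10 were higher and 19 lower, where 33.3% and 34.1% of all genes were. APOL1, an apolipoprotein that lyses trypanosomes, was at 309 and 229 CPM in shGOLM1, against 71.7 and 68.9 CPM in shscramble, and passed as higher in each library alone with log2 fold changes of 2.12 (SE 0.11, adjusted p 1.06e-12) and 1.66 (SE 0.10, adjusted p 9.44e-10). HELZ2, a helicase that acts as a coactivator, was at 21.4 and 13.6 CPM in shGOLM1, against 5.97 and 5.71 CPM in shscramble, also higher in each. NMI, a partner of STAT proteins, was at 39.4 and 30.5 CPM in shGOLM1, against 95 and 87.3 CPM in shscramble, and PNPT1, a mitochondrial RNA exonuclease, at 62.4 and 20.0 CPM in shGOLM1, against 144 and 144 CPM in shscramble. Both were lower in each library alone.

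DDX60 lies outside the rule for named genes and was chosen after its values were seen. DDX60, a helicase that aids RIG-I, had 120 and 0 counts in shGOLM1, against 46 and 35 counts in shscramble, so in replicate 2 it was at least 9.35-fold lower than the shscramble mean, with 3 counts per library as the floor.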
